A study of Mus musculus with 9 samples.

Results

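The genes described here encode proteases that cut the extracellular matrix, together with the proteins that inhibit, anchor or receive them, in D3 mouse embryonic stem (ES) cells. Members were chosen by gene symbol: matrix metalloproteinases (Mmp), their tissue inhibitors (Timp), the Adamts and Adamtsl families, the serpins, and Plat, Plau, Plaur, Prss23, Htra1 and A2m. The count table of 24421 genes held 120 such genes, of which 69 had at least 10 counts summed over the 9 libraries and are the members. The other 51 had fewer, and 25 of these had no count in any library. Just inside that threshold stood Serpina1d with 10 counts, and just outside it Mmp1b and Mmp21 with 9 counts each. The names cover more than matrix proteolysis: Serpinh1 is a collagen chaperone, Serpina7 a thyroid hormone carrier, and the Serpinb proteins act mostly inside cells.

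The study compared 3 groups of 3 polyA-selected RNA libraries. The LAMP2A+DM-αKG group was D3 cells that overexpressed LAMP2A and were given the cell-permeable ester DM-αKG at 4 mM for 72 h. The LAMP2A group was the same overexpressing cells left untreated, and the VT group was D3 cells that stably carried the empty pCDH control vector. Every group was kept on gelatin with no feeder layer, and the medium held serum and ESGRO (leukaemia inhibitory factor). LAMP2A, 1 of the proteins made from the Lamp2 gene by alternative splicing, receives substrates at the lysosome in chaperone-mediated autophagy. DM-αKG was compared on the overexpressing background alone. Nothing in the labels tells whether replicates were independent cultures or whether a line was 1 clone, so the p-values measure the spread between these libraries, which may be technical.

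Matrix metalloproteinases are zinc enzymes made as inactive precursors, either secreted or fixed to the membrane, and the 4 TIMPs block their active site. ADAMTS enzymes are secreted relatives that trim procollagens and cut proteoglycans such as aggrecan and versican, while ADAMTSL proteins share their ancillary domains but lack the protease. The plasminogen system runs beside them: the activators tPA (Plat) and uPA (Plau, held at the surface by its receptor Plaur) turn plasminogen into plasmin, and serpins such as protease nexin-1 (Serpine2) stop the activators. In early mouse development such genes are known from tissues that lay down or cross basement membranes, among them parietal endoderm and trophoblast.

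Library totals ran from 23636074 to 32809875 counts. Levels are given as CPM, the usual count scaled to library depth, here with TMM factors, and tests are edgeR's quasi-likelihood F-tests over 14513 genes, in which a gene passed when its Benjamini-Hochberg adjusted p was under 0.05. Lamp2, counted over all its splice forms, averaged 97.2 ± 2.00 CPM in LAMP2A+DM-αKG cells, 404 ± 2.24 CPM in LAMP2A cells and 58.2 ± 1.64 CPM in VT cells (SD, n = 3 each). Lamp2 itself was thus lower with DM-αKG than in LAMP2A (log2 fold change -2.06). The part of this lower Lamp2 level in the members' changes was not tested. The 7 ES cell markers examined, Pou5f1, Nanog, Sox2, Zfp42, Esrrb, Dppa5a and Fgf4, were detected in every group. All 7 were higher with DM-αKG than in LAMP2A, where 41.1% of all genes tested were. All 7 were also lower in LAMP2A than in VT, where 42.1% of all genes were. Their summed level was 5088 to 5138 CPM in LAMP2A+DM-αKG, 1607 to 1614 CPM in LAMP2A and 6122 to 6503 CPM in VT libraries. LAMP2A+DM-αKG replicate 1 held more counts of a few liver-type transcripts than the other libraries, among them Serpina members with too few counts to be tested. Without that library 9 members rose and 40 fell with DM-αKG, where 11 and 39 did with it. The calls lost were the rises of Serpinb6c and Timp1 and the fall of Mmp24. Those Serpina members were not tested and so had no call to lose. The spread between libraries was small (common biological coefficient of variation 2.74%) and most genes passed in each comparison, so the counts of members below are read against that background.

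Most matrix protease and inhibitor genes were low in VT cells, rose in LAMP2A cells and fell again with DM-αKG. Of the 56 members that had enough counts to be tested, 50 passed in LAMP2A+DM-αKG relative to LAMP2A, where 83.2% of all tested genes did: 11 rose and 39 fell, against 41.1% and 42.1% of all genes. In LAMP2A relative to VT 53 passed, where 85.1% of all genes did: 40 rose and 13 fell, against 43.0% and 42.1%. The number of members that passed was thus near the background. Counting only changes of at least 2-fold, 4 members rose and 35 fell with DM-αKG, against 8.06% and 17.6% of all genes, and 35 rose and 7 fell in LAMP2A relative to VT, against 19.8% and 9.61%. In either direction these were 39 members with DM-αKG, against 25.7% of all genes, and 42 in LAMP2A relative to VT, against 29.4%. The libraries of the groups did not overlap for 50 of the 56 members with DM-αKG, where 85.5% of all genes were apart, and for 53 in LAMP2A relative to VT, where 85.0% were. The median log2 fold change of the tested members was -1.58 with DM-αKG and 1.50 in LAMP2A relative to VT, and that of all genes tested was -0.00 and 0.01. These comparisons share the LAMP2A libraries, so a level particular to those libraries moves both. A member that met the low count filter only through the LAMP2A libraries had to differ, and 11 of the 56 were such: Adamts1, Adamts5, Adamts6, Adamts12, Adamts19, Mmp16, Prss23, Serpina3g, Serpina3h, Serpinb6b and Serpinf1. All 11 are among the 39 that fell with DM-αKG and the 40 that rose in LAMP2A relative to VT, so those counts are a description and not support for a direction. Of the other 45 tested members, 11 rose and 28 fell with DM-αKG, and 29 rose and 13 fell in LAMP2A relative to VT. Their median log2 fold changes were -1.11 and 1.37, in a division made after the values were seen. Those 13 include Serpina3i, which met the filter only through the VT libraries, so its fall was fixed in advance. Over all 69 members, 33 averaged at least 1 CPM in LAMP2A+DM-αKG cells, 48 in LAMP2A cells and 38 in VT cells.

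**Figure D1:**
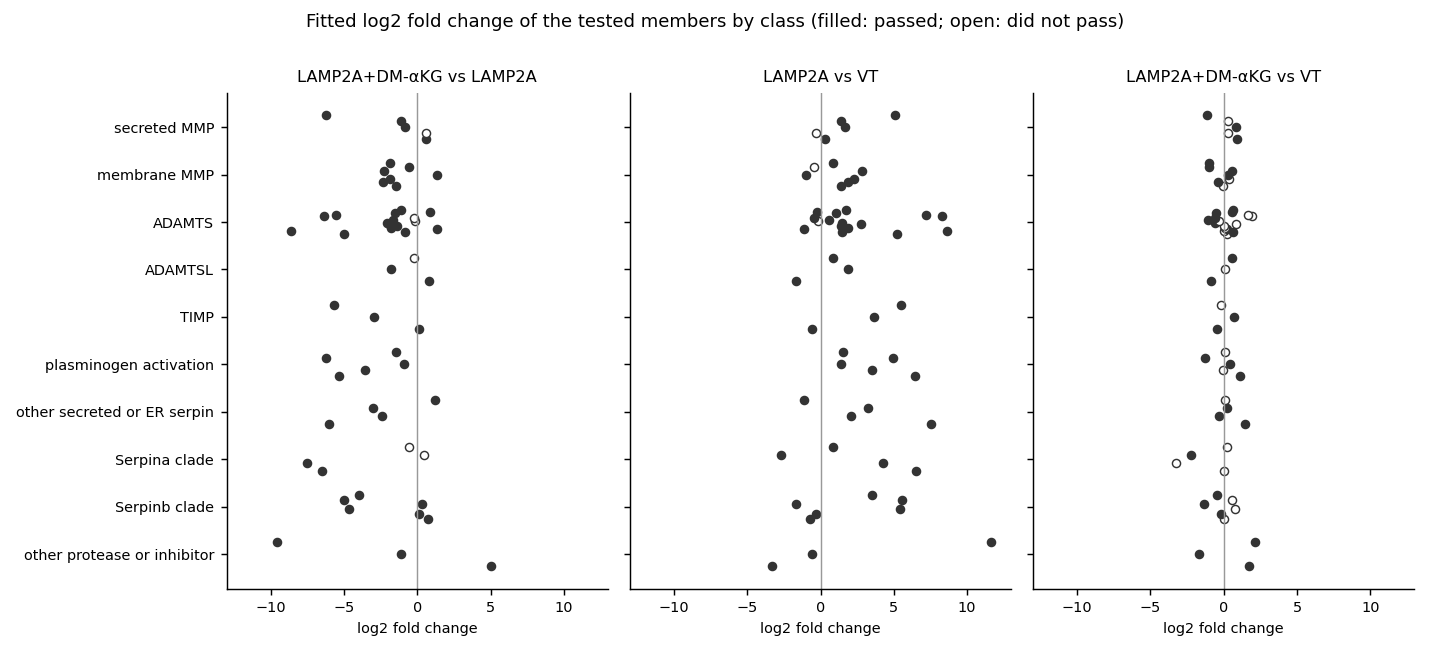
Fitted log2 fold change (horizontal axis) of each of the 56 tested members, 1 point per gene, arranged by class, in LAMP2A+DM-αKG relative to LAMP2A (left), LAMP2A relative to VT (middle) and LAMP2A+DM-αKG relative to VT (right). Filled points passed at an adjusted p under 0.05 and open points did not. Most points lie below 0 in the left panel (median -1.58) and above 0 in the middle panel (median 1.50), and around 0 in the right panel (median 0.08).

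Treated LAMP2A cells and VT cells stood much closer together. In LAMP2A+DM-αKG relative to VT, 16 members rose and 17 fell, where 29.3% of all tested genes passed in each direction. The 17 include Serpina3i, which met the low count filter only through the VT libraries, so its fall was fixed in advance. The share of members that passed, 58.9%, was that of all genes tested, 58.7%. Changes of at least 2-fold numbered 4 upward and 7 downward, against 3.93% and 2.63% of all genes, or 6.55% in either direction. The groups did not overlap for 33 of the 56, where 61.2% of all genes were apart. By the calls of the 3 comparisons, 18 members were higher in LAMP2A than in both other groups with no difference passing between those others, among them Mmp14, Timp3, Plau, Serpine2 and Serpinb9. A further 10, among them Mmp2, Timp2, Plat, Plaur, Serpinh1 and Adamts9, were also higher in LAMP2A+DM-αKG than in VT, and 9, among them Mmp9 and Mmp15, were lower in LAMP2A+DM-αKG than in VT. Of the 18, Adamts1, Adamts5, Adamts6, Adamts12, Adamts19, Mmp16, Serpina3g, Serpina3h and Serpinb6b met the low count filter only through the LAMP2A libraries. So did Prss23 and Serpinf1 of the 10, and for all these genes a peak in LAMP2A was fixed in advance. The share of all tested genes with each pattern is not given here. Another 4, A2m, Adamts14, Adamts8 and Mmp17, were lower in LAMP2A than in VT and higher with DM-αKG than in both. Mmp11 was higher in all 3 comparisons and Htra1 lower in all 3, while Adamts20 and Mmp19 passed in none.

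**Figure D2:**
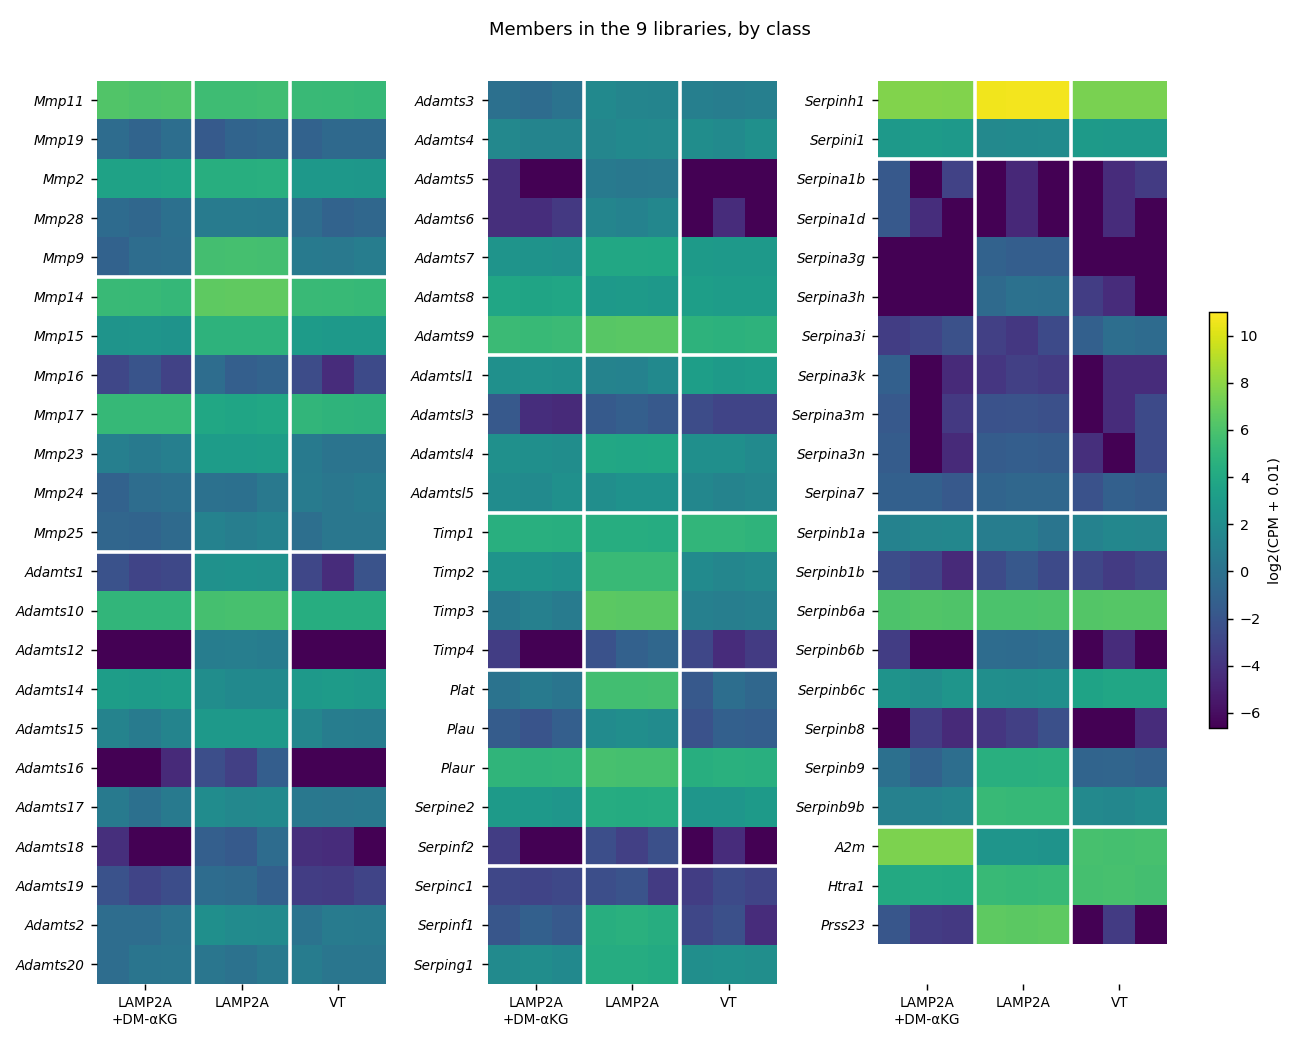
Log2(CPM + 0.01) of 68 of the 69 members in each of the 9 libraries, with the 3 LAMP2A+DM-αKG libraries left, the LAMP2A libraries in the middle and the VT libraries right in each block. White lines separate the groups and the classes (secreted MMP, membrane MMP, ADAMTS, ADAMTSL, TIMP, plasminogen activation, other secreted or ER serpins, Serpina, Serpinb, others). The LAMP2A columns are the brightest for most genes, with A2m, Mmp17 and Adamts14 among those that are darkest there.

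The LAMP2A libraries also differed from the others in markers of other cell types. Of all genes tested, 43.0% were higher and 42.1% lower in LAMP2A than in VT, and 42.1% were lower with DM-αKG than in LAMP2A. Of 9 fibroblast markers, 7 could be tested, 6 were higher and 1 lower in LAMP2A than in VT, and their summed level was 6.99 to 10.1 CPM in LAMP2A+DM-αKG, 125 to 127 CPM in LAMP2A and 8.54 to 9.63 CPM in VT libraries. Fap had no count in LAMP2A or VT libraries and Lum none in VT. Col1a2 and Col3a1 averaged 0.0756 and 0.0865 CPM in VT and met the low count filter only through the LAMP2A libraries. The directions of Col1a2 and Col3a1 in these counts were fixed in advance. With DM-αKG, all 7 were lower than in LAMP2A. All 8 parietal endoderm markers were higher in LAMP2A than in VT, with summed levels of 1337 to 1394 CPM in LAMP2A+DM-αKG, 3876 to 3924 CPM in LAMP2A and 898 to 950.2 CPM in VT. The 5 smooth muscle markers, Acta2 and Tagln among them, summed to 18.8 to 20.7, 2022 to 2061 and 21.0 to 23.2 CPM in the same order of groups, and all 5 were higher in LAMP2A than in VT. Of 7 trophoblast markers, 5 were tested and all were higher in LAMP2A than in VT, at summed levels of 31.8 to 32.7 CPM in LAMP2A+DM-αKG, 127 to 133 CPM in LAMP2A and 24.9 to 25.9 CPM in VT, while the giant cell hormone genes Prl3d1 and Prl2c2 had no count in any library. All 5 tested of 6 visceral endoderm markers were higher in LAMP2A, and their sums were 7.66 to 9.80 CPM in LAMP2A+DM-αKG, 214 to 219.9 CPM in LAMP2A and 10.2 to 13.4 CPM in VT, where Afp had no count. Leukocyte markers summed to 13.5 to 14.9, 11.5 to 13.5 and 25.8 to 28.8 CPM in the same order, with Adgre1 at 0 in all libraries and Ptprc at 0 in LAMP2A. Only 3 of the 6 leukocyte markers were tested, and 2 were higher and 1 lower in LAMP2A than in VT. Endothelial markers summed to 75.2 to 77.9, 35.4 to 37.9 and 90.3 to 94.8 CPM, with Emcn at 0 outside LAMP2A. Of the 5 endothelial markers tested, 2 were higher and 2 lower in LAMP2A than in VT. The part of these markers' cell types in the members' changes was not tested, and in bulk RNA fewer cells of a type and less RNA per cell cannot be told apart.

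Promoters were examined for 45 of the 69 members, those with an entry in the RefSeq promoter table (GRCm38.p6, 250 bases before to 50 after each annotated start). Members without an entry included A2m, Adamts4, Adamts5, Adamts6, Adamts7, Adamts8, Adamts10, Adamts15, Adamts16, Adamts19, Adamtsl1, Mmp2, Mmp9, Mmp16, Mmp17, Mmp19, Plat, Plau, Serpina3h, Serpina3k, Serpina3m, Serpinb1a and Serping1. A gene counted as holding a motif when any of its windows did, on either strand. The AP-1 motif TGANTCA was in 11.1% of members and 8.97% of all 27025 genes in the table, and the TEAD motif GGAATG in 11.1% and 16.6%. GC boxes (GGGCGG) were in 64.4% of members, 38.2% of all genes and 49.2% of the protein-coding ones, and the TATA box TATAAA in 6.67% of members and 15.7% of all genes. The E-box CAGNTG was in 44.4% of members and 54.6% of all genes. The AP-1 motif is known from protease promoters, and the members holding it were Plaur, Prss23, Serpinb8, Serpina1b and Serpina1d, of which only Plaur and Prss23 had enough counts for a test. Their windows are shown with those of Timp3 and Serpinh1, which moved in the same direction and hold no TGANTCA there. Each line gives the 250 bases before the annotated start, 5′ to 3′ on the gene's strand, with matches to the AP-1, TEAD, GC box and TATA motifs in capitals. Prss23 has several annotated starts and the window shown is the first one with an AP-1 match, at position -146, and the match of Plaur is at -69. The windows are chr7:24462233-24462482 on the plus strand, chr7:89518205-89518454 on the minus strand, chr10:86300162-86300411 on the plus strand and chr7:99353240-99353489 on the minus strand.
Plaur: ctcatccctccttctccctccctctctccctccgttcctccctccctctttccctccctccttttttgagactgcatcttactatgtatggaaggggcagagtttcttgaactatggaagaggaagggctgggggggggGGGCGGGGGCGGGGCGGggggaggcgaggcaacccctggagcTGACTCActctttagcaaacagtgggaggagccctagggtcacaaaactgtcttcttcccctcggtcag
Prss23: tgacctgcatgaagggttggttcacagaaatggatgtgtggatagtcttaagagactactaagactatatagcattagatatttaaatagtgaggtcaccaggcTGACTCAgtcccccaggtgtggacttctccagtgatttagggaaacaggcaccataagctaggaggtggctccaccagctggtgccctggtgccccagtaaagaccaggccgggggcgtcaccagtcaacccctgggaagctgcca
Timp3: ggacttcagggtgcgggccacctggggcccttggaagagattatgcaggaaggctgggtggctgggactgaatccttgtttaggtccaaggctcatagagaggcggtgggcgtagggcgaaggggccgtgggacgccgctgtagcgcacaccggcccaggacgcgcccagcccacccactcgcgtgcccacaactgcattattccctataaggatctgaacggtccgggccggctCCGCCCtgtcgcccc
Serpinh1: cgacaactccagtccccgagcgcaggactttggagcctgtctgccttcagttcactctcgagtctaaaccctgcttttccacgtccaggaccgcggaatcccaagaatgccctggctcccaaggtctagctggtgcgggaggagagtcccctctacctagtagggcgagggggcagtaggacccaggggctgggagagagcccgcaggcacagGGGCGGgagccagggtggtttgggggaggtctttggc
A match is a description of the letters and not evidence of binding. In Plaur the capitals before the AP-1 match are 3 GC boxes in a row, and in Timp3 the GC box lies on the opposite strand.

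Among the secreted metalloproteinases, Mmp9 changed most. Mmp9 (gelatinase B, chr2:164940780-164955850 in mm10, plus strand), which cuts denatured and basement membrane collagen, had 0.463, 0.770 and 0.865 CPM in the LAMP2A+DM-αKG libraries, 51.7, 55.0 and 53.7 CPM in the LAMP2A libraries and 1.48, 1.41 and 1.79 CPM in the VT libraries. No library of one group overlapped another's range. It fell 74.4-fold with DM-αKG (log2 fold change -6.22 ± 0.0956 SE, adjusted p = 9.46e-35), stood 34.2-fold higher in LAMP2A than in VT, and in treated cells was 2.18-fold below VT (adjusted p = 4.83e-05, edgeR's quasi-likelihood test). Mmp2 (gelatinase A), which cuts many of the same substrates, moved less, at 11.5, 11.5 and 12.5 CPM in LAMP2A+DM-αKG, 21.3, 21.2 and 22.0 CPM in LAMP2A and 6.75, 6.88 and 6.40 CPM in VT. It fell 1.81-fold with DM-αKG but stayed 1.78-fold above VT (log2 fold change 0.83 ± 0.0763 SE). Mmp11 (stromelysin-3), which furin activates inside the cell, went the other way from both gelatinases with treatment. Its levels were 74.0, 68.4 and 71.2 CPM in LAMP2A+DM-αKG, 45.5, 46.5 and 48.2 CPM in LAMP2A and 39.3, 38.4 and 36.7 CPM in VT, so that it rose 1.52-fold with DM-αKG and 1.22-fold in LAMP2A relative to VT. Mmp28 (epilysin) was low, with means of 0.730, 1.59 and 0.619 CPM in LAMP2A+DM-αKG, LAMP2A and VT, and was higher in LAMP2A than in either other group. The Mmp cluster on chromosome 9 was near 0 in every group: of its 10 genes, from Mmp13 to Mmp7, none reached 10 counts and 5 had no count at all.

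Of the 7 membrane-bound metalloproteinases, 6 fell and 1 rose with DM-αKG, against 42.1% and 41.1% of all genes tested. In LAMP2A relative to VT, 5 rose and 1 fell, against 43.0% and 42.1%. Mmp16 met the low count filter only through the LAMP2A libraries, so its directions in these counts were fixed in advance. Mmp14 (MT1-MMP, chr14:54431612-54445364), the collagenase that also activates pro-MMP2 at the cell surface, had 39.1, 38.4 and 35.1 CPM in LAMP2A+DM-αKG, 101, 102 and 102 CPM in LAMP2A and 39.5, 37.6 and 36.9 CPM in VT. The treated and VT libraries overlapped, and their difference did not pass (log2 fold change -0.02 ± 0.0454 SE, adjusted p = 0.723), while LAMP2A stood 2.67-fold above VT. Mmp15 (MT2-MMP) had 5.47, 5.97 and 5.26 CPM in LAMP2A+DM-αKG, 27.8, 27.6 and 26.9 CPM in LAMP2A and 8.23, 6.95 and 7.14 CPM in VT, and treated cells were 1.34-fold below VT. Mmp17 (MT4-MMP), which is fixed to the membrane by a GPI anchor, ran opposite to both. Its levels were 35.8, 35.5 and 36.3 CPM in LAMP2A+DM-αKG, 14.9, 13.5 and 14.4 CPM in LAMP2A and 31.2, 28.4 and 26.7 CPM in VT, a rise of 2.51-fold with DM-αKG and a fall of 2.01-fold in LAMP2A relative to VT. Mmp23, a membrane enzyme released by cleavage, averaged 1.79 ± 0.281 CPM, 8.78 ± 0.202 CPM and 1.22 ± 0.189 CPM in LAMP2A+DM-αKG, LAMP2A and VT (SD, n = 3). The 1.47-fold difference of treated cells from VT in Mmp23 no longer passed without LAMP2A+DM-αKG replicate 3 (log2 fold change 0.48). Mmp16, Mmp24 and Mmp25 (MT3-, MT5- and MT6-MMP) stayed between 0.152 and 2.10 CPM in LAMP2A+DM-αKG and LAMP2A cells, and all 3 fell with DM-αKG. The fall of Mmp24, 1.47-fold, did not pass by DESeq2, nor without LAMP2A replicate 3 (log2 fold change -0.34) or LAMP2A+DM-αKG replicates 1 (-0.34) or 2 (-0.59).

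**Figure D3:**
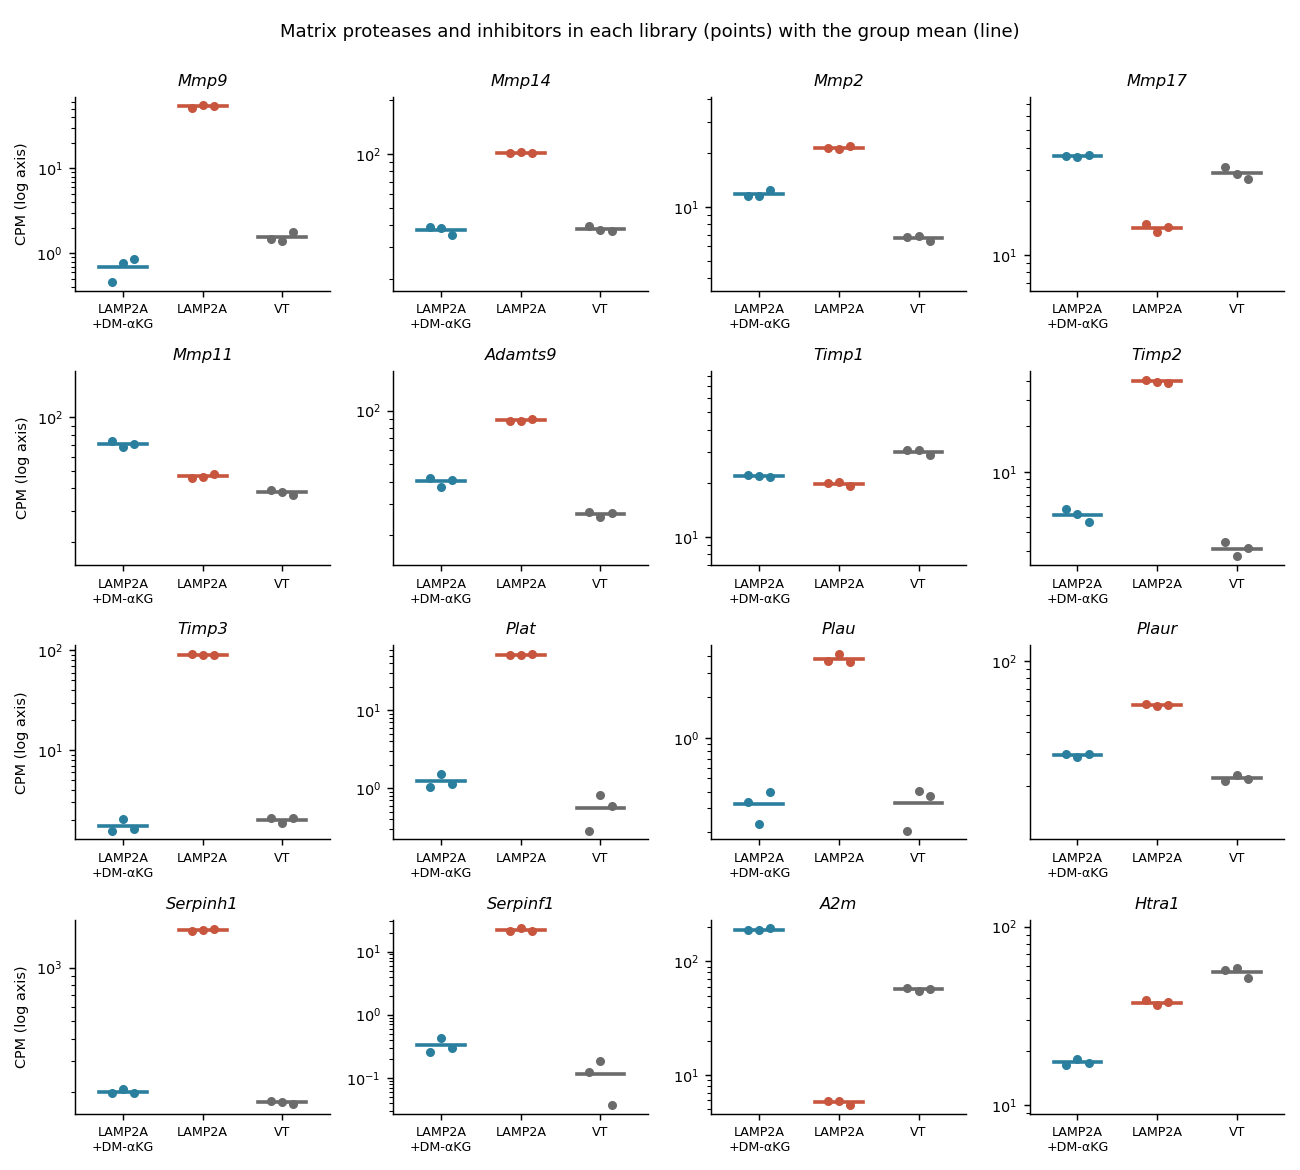
CPM (log axis, its range differing between panels) of 16 members in each of the 3 LAMP2A+DM-αKG, LAMP2A and VT libraries, with 1 point per library and a line at the group mean. Mmp9, Timp3, Plat and Serpinf1 are at least 10 times higher in LAMP2A libraries than in any other, while A2m and Mmp17 are lowest there, and Htra1 and Mmp11 are ordered across the 3 groups.

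The inhibitors of these enzymes did not move as one. Timp3 (chr10:86300372-86349506, plus strand), the TIMP that binds to the matrix and also blocks several ADAM and ADAMTS enzymes, had 1.56, 2.04 and 1.60 CPM in LAMP2A+DM-αKG, 92.0, 89.9 and 89.7 CPM in LAMP2A and 2.06, 1.85 and 2.08 CPM in VT. It fell 52.2-fold with DM-αKG (log2 fold change -5.71 ± 0.0698 SE, adjusted p = 1.16e-37 by edgeR's quasi-likelihood test), and the treated and VT ranges overlapped. Timp3 lies within Syn3, on the opposite strand, and shares 21.3% of its exon bases with it, and the strand setting of the counting is not given in the sources used here. Syn3 itself averaged 1.62 CPM in LAMP2A+DM-αKG, 1.23 CPM in LAMP2A and 0.747 CPM in VT, an order unlike that of Timp3. Timp2, which bridges MT1-MMP and pro-MMP2, had 5.68, 5.28 and 4.66 CPM in LAMP2A+DM-αKG, 40.6, 39.1 and 38.9 CPM in LAMP2A and 3.46, 2.77 and 3.12 CPM in VT. Its treated level was 7.66-fold below LAMP2A and still 1.66-fold above VT. Timp1, a secreted inhibitor with growth-promoting activity, was the exception, at 22.4, 22.0 and 21.6 CPM in LAMP2A+DM-αKG, 20.2, 20.3 and 19.3 CPM in LAMP2A and 30.7, 30.8 and 28.6 CPM in VT. LAMP2A was 1.51-fold below VT, and the 1.10-fold rise with DM-αKG (adjusted p = 0.0170) did not pass by DESeq2, among genes averaging at least 5 CPM (log2 fold change 0.09), or without LAMP2A replicate 3 (0.12) or LAMP2A+DM-αKG replicate 1 (0.13). Timp4 had 2, 37 and 6 counts summed over the LAMP2A+DM-αKG, LAMP2A and VT libraries and was not tested. It lies within Syn2 on the opposite strand, shares 90 exon bases with it, and was highest in LAMP2A like Syn2, which had 6, 90 and 3 counts in LAMP2A+DM-αKG, LAMP2A and VT. Counts of the overlap cannot be told apart without the strand setting. Per kilobase of exon, the summed level of the 4 TIMPs was 26.3 ± 0.602 CPM in LAMP2A+DM-αKG, 43.8 ± 0.861 CPM in LAMP2A and 34.9 ± 1.35 CPM in VT, and that of the 12 MMP members was 43.5 ± 1.12, 67.6 ± 0.961 and 29.6 ± 1.21 CPM (SD, n = 3). On that scale MMPs summed to less than TIMPs in VT and to more in the other groups.

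Of the 16 tested ADAMTS members, 2 rose and 12 fell with DM-αKG, against 41.1% and 42.1% of all genes tested. In LAMP2A relative to VT, 12 rose and 3 fell, against 43.0% and 42.1%. Adamts1, Adamts5, Adamts6, Adamts12 and Adamts19 met the low count filter only through the LAMP2A libraries, so their directions in these counts were fixed in advance. Adamts9, a versican-cleaving enzyme, had 42.0, 37.5 and 40.8 CPM in LAMP2A+DM-αKG, 87.3, 87.5 and 89.5 CPM in LAMP2A and 26.9, 25.4 and 26.7 CPM in VT. Adamts10, which binds fibrillin microfibrils, had 31.0, 31.3 and 31.4 CPM in LAMP2A+DM-αKG, 54.9, 57.5 and 57.7 CPM in LAMP2A and 20.4, 20.6 and 19.9 CPM in VT. Both had the highest CPM of the family in LAMP2A, and in both the treated libraries lay between those of LAMP2A and VT, 1.52-fold and 1.54-fold above VT. Adamts7, known to cut cartilage oligomeric matrix protein, had 5.55, 5.39 and 4.82 CPM in LAMP2A+DM-αKG, 15.2, 15.3 and 14.9 CPM in LAMP2A and 7.86, 7.03 and 7.40 CPM in VT, with treated cells below VT. Adamts15, a proteoglycan-cleaving enzyme, had 2.31, 1.62 and 2.43 CPM in LAMP2A+DM-αKG, 6.99, 7.61 and 7.51 CPM in LAMP2A and 2.67, 1.77 and 1.67 CPM in VT, and its treated and VT libraries overlapped. Some family members were close to absent outside LAMP2A. Adamts1, an aggrecan- and versican-cleaving enzyme, averaged 0.153 CPM, 4.87 CPM and 0.128 CPM in LAMP2A+DM-αKG, LAMP2A and VT. Adamts6 had 4 counts in all LAMP2A+DM-αKG libraries, 235 in LAMP2A and 1 in VT, a LAMP2A to VT ratio of 200.2 (95% counting interval 35.6 to 7939). Adamts12, with 162 counts in LAMP2A and none elsewhere, was at least 46.9-fold lower in LAMP2A+DM-αKG and at least 46.0-fold higher in LAMP2A than in VT, taking 3 counts over a group as the floor. Adamts5, the main aggrecanase of mouse cartilage, was at least 36.9-fold higher in LAMP2A than in VT on the same floor.

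The procollagen N-proteinases, which remove the amino propeptide of fibrillar collagens, were split. Adamts2 averaged 0.889 ± 0.181 CPM in LAMP2A+DM-αKG, 3.83 ± 0.476 CPM in LAMP2A and 1.38 ± 0.307 CPM in VT, and Adamts3 averaged 0.893 ± 0.167, 2.78 ± 0.413 and 1.88 ± 0.125 CPM in the same order (SD, n = 3). Both fell with DM-αKG. Adamts14, the third enzyme of that group, rose instead, with 8.92, 8.16 and 9.15 CPM in LAMP2A+DM-αKG, 3.95, 3.23 and 3.36 CPM in LAMP2A and 7.24, 8.06 and 7.44 CPM in VT. Its treated level was 2.48-fold above LAMP2A (log2 fold change 1.31 ± 0.0959 SE), and LAMP2A was 2.15-fold below VT. Relative to VT, the 1.15-fold higher treated level of Adamts14 did not pass by DESeq2 or without VT replicates 1 (log2 fold change 0.18) or 3 (0.19) or LAMP2A+DM-αKG replicates 1 (0.20) or 3 (0.17). The 1.54-fold lower treated level of Adamts2 did not pass by DESeq2 or without VT replicates 2 (log2 fold change -0.51) or 3 (-0.55) or LAMP2A+DM-αKG replicates 1 (-0.56) or 2 (-0.53). Adamts8, an inhibitor of blood vessel growth in culture, also rose with DM-αKG, to 13.4 ± 0.500 CPM in LAMP2A+DM-αKG against 7.34 ± 0.496 CPM in LAMP2A, with 8.89 ± 0.522 CPM in VT. Adamts4, an aggrecanase, averaged 2.65, 3.03 and 4.04 CPM in LAMP2A+DM-αKG, LAMP2A and VT, and its 1.34-fold fall in LAMP2A did not pass without VT replicate 3 (log2 fold change -0.30). Adamts17 and Adamts19 were higher in LAMP2A than in the other groups at means up to 3.39 CPM, and Adamts20 averaged 1.05, 1.21 and 1.35 CPM in LAMP2A+DM-αKG, LAMP2A and VT with no difference passing. Of the ADAMTSL proteins, Adamtsl4, a fibrillin-binding protein, averaged 4.36 ± 0.286 CPM in LAMP2A+DM-αKG, 14.8 ± 0.595 CPM in LAMP2A and 4.06 ± 0.555 CPM in VT. Adamtsl1 ran opposite at 4.64 ± 0.268, 2.69 ± 0.586 and 8.64 ± 0.840 CPM, and Adamtsl5 averaged 4.01 ± 0.647, 4.80 ± 0.525 and 2.70 ± 0.269 CPM.

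All 5 tested genes classed under plasminogen activation fell with DM-αKG, where 42.1% of all genes tested did. They also rose in LAMP2A relative to VT, where 43.0% of all genes did. Serpini1, an inhibitor of tPA classed with the other secreted serpins below, went the opposite way in both comparisons. Plat (tPA, chr8:22757727-22782844, plus strand) had 1.05, 1.54 and 1.13 CPM in LAMP2A+DM-αKG, 51.3, 50.7 and 52.8 CPM in LAMP2A and 0.288, 0.813 and 0.595 CPM in VT. It was 41.4-fold lower with DM-αKG (log2 fold change -5.37 ± 0.0916 SE, adjusted p = 2.05e-33) and 89.0-fold higher in LAMP2A than in VT, with no overlap between any groups. Plau (uPA), per kilobase of exon, averaged 0.136 CPM in LAMP2A+DM-αKG, 1.62 CPM in LAMP2A and 0.139 CPM in VT, against 0.199, 8.27 and 0.0906 CPM for Plat, so that Plat was the higher of the pair in LAMP2A+DM-αKG and LAMP2A but not in VT. Its libraries had 0.337, 0.231 and 0.399 CPM in LAMP2A+DM-αKG, 3.71, 4.16 and 3.66 CPM in LAMP2A and 0.206, 0.407 and 0.372 CPM in VT, and the treated and VT ranges overlapped. Plaur, the uPA receptor, moved least of these genes in both comparisons with LAMP2A, with 30.3, 29.1 and 30.3 CPM in LAMP2A+DM-αKG, 57.9, 56.4 and 56.7 CPM in LAMP2A and 21.3, 23.0 and 21.9 CPM in VT. The treated level of Plaur kept a 1.35-fold excess over VT (log2 fold change 0.44 ± 0.0498 SE). Serpine2 (protease nexin-1), which also blocks thrombin, had 7.78, 7.63 and 6.29 CPM in LAMP2A+DM-αKG, 19.9, 18.7 and 19.5 CPM in LAMP2A and 6.21, 6.14 and 7.96 CPM in VT. The activators, their receptor and Serpine2 moved in the same direction in both comparisons with LAMP2A, with folds between LAMP2A and VT of 2.58 for Plaur to 89.0 for Plat. Plasminogen itself (Plg), not a member, averaged 0.0561, 0.122 and 0.0508 CPM in LAMP2A+DM-αKG, LAMP2A and VT, and Serpinf2, the plasmin inhibitor, had 2, 14 and 1 counts.

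Serpinh1 had the highest mean CPM of any member in every group, far above the next in LAMP2A and close to A2m in LAMP2A+DM-αKG. Serpinh1 (HSP47, chr7:99345376-99353239, minus strand) holds procollagen in the endoplasmic reticulum and does not inhibit proteases. It had 199, 208 and 199 CPM in LAMP2A+DM-αKG, 1606, 1620.0 and 1643 CPM in LAMP2A and 178, 177 and 172 CPM in VT. It was 8.03-fold lower with DM-αKG (log2 fold change -3.00 ± 0.0313 SE, adjusted p = 1.02e-39), 9.23-fold higher in LAMP2A than in VT, and 1.15-fold higher in treated cells than in VT (adjusted p = 1.11e-06). The gene took 23.5% of the members' summed CPM in LAMP2A+DM-αKG, 58.2% in LAMP2A and 25.4% in VT. Without it, the summed level of the other 68 members was 659 ± 6.27 CPM in LAMP2A+DM-αKG, 1165 ± 7.49 CPM in LAMP2A and 517 ± 7.80 CPM in VT (SD, n = 3). Per kilobase of exon Serpinh1 stood first in every group, and next after it came A2m in LAMP2A+DM-αKG, Prss23 in LAMP2A and Timp1 in VT.

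The other secreted serpins were mostly high in LAMP2A. Serpinf1 (PEDF), a collagen-binding serpin without inhibitory activity, had 0.252, 0.424 and 0.299 CPM in LAMP2A+DM-αKG, 21.3, 23.3 and 20.8 CPM in LAMP2A and 0.123, 0.185 and 0.0372 CPM in VT. It fell 66.0-fold with DM-αKG, and its 2.76-fold excess over VT in treated cells did not pass without VT replicate 3 (log2 fold change 1.04) or LAMP2A+DM-αKG replicate 2 (1.25). Serping1, the inhibitor of complement C1 proteases, had 3.41, 4.01 and 3.29 CPM in LAMP2A+DM-αKG, 19.2, 19.3 and 17.5 CPM in LAMP2A and 4.28, 4.70 and 4.24 CPM in VT. The 1.24-fold lower treated level of Serping1 relative to VT did not pass by DESeq2 or without VT replicate 2 (log2 fold change -0.26) or LAMP2A+DM-αKG replicates 1 (-0.28) or 3 (-0.24). Serpini1 (neuroserpin), an inhibitor of tPA, was the opposite case. It had 7.61, 8.40 and 7.35 CPM in LAMP2A+DM-αKG, 3.22, 3.42 and 3.58 CPM in LAMP2A and 7.90, 7.10 and 7.40 CPM in VT, so that it rose 2.29-fold with DM-αKG and the treated and VT libraries overlapped. Serpinc1 (antithrombin) had 10, 15 and 9 counts in LAMP2A+DM-αKG, LAMP2A and VT and was not tested.

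The Serpinb genes of chromosome 13 differed by their place in the cluster. Of 15 genes in 1161 kb, 7 were members, and 3 neighbours on the plus strand, Serpinb6b, Serpinb9 and Serpinb9b, were high in LAMP2A. Serpinb9, the intracellular inhibitor of granzyme B, had 0.883, 0.462 and 0.832 CPM in LAMP2A+DM-αKG, 22.6, 22.6 and 23.5 CPM in LAMP2A and 0.494, 0.518 and 0.446 CPM in VT. Serpinb9b had 2.10, 2.23 and 2.63 CPM in LAMP2A+DM-αKG, 37.8, 35.3 and 36.3 CPM in LAMP2A and 3.13, 2.92 and 3.57 CPM in VT. These genes fell 31.3-fold and 15.5-fold with DM-αKG, and Serpinb6b had 2, 69 and 1 counts in LAMP2A+DM-αKG, LAMP2A and VT. At the ends of the cluster the order was reversed. Serpinb6a, whose human counterpart inhibits cathepsin G, had 67.9, 72.5 and 69.6 CPM in LAMP2A+DM-αKG, 64.1, 64.5 and 67.4 CPM in LAMP2A and 77.0, 82.8 and 80.7 CPM in VT, and was 1.23-fold lower in LAMP2A than in VT. Serpinb6c had 5.43, 4.12 and 5.85 CPM in LAMP2A+DM-αKG, 4.23, 3.95 and 4.33 CPM in LAMP2A and 11.8, 14.2 and 13.7 CPM in VT, and Serpinb1a, an inhibitor of neutrophil elastase, averaged 2.62 ± 0.347, 1.54 ± 0.334 and 2.61 ± 0.278 CPM in the same order of groups. The rise of Serpinb6a with DM-αKG (1.07-fold) did not pass by DESeq2, among genes averaging at least 5 CPM (log2 fold change 0.05), or without LAMP2A replicates 1 (0.09) or 2 (0.09) or LAMP2A+DM-αKG replicate 2 (0.08). That of Serpinb6c (1.24-fold) did not pass by DESeq2 or without LAMP2A replicate 2 (0.27) or LAMP2A+DM-αKG replicates 1 (0.28) or 3 (0.19). The Serpinb genes are close copies of each other, so counts may be split between them, and Serpinb6a shares exon bases with 3 genes on the opposite strand.

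**Figure D4:**
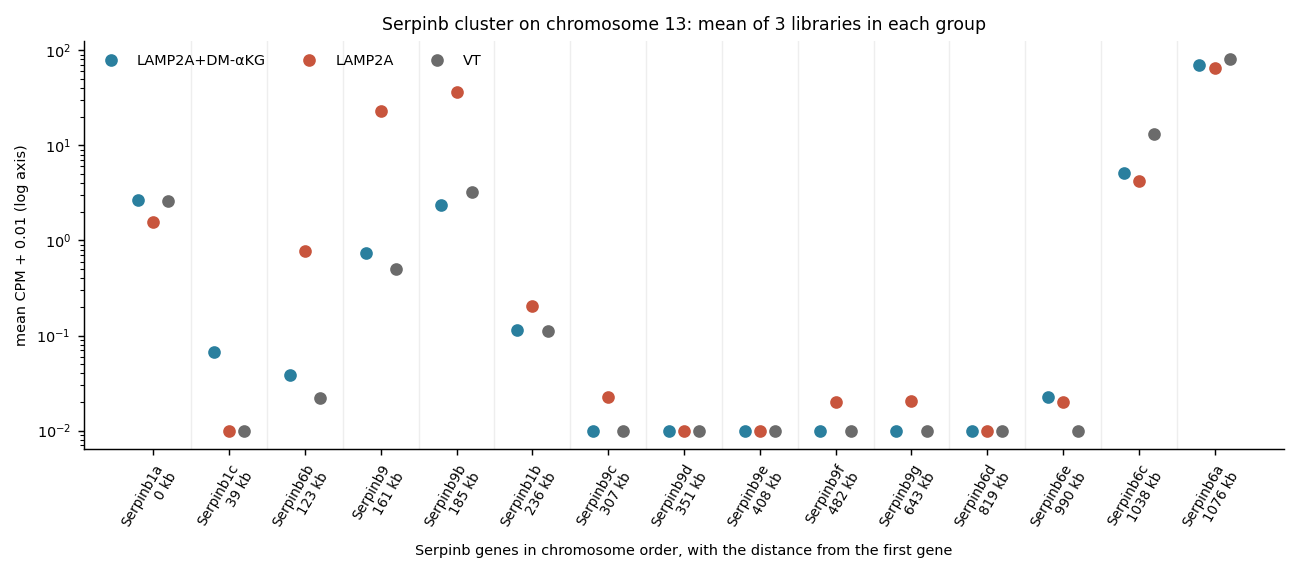
Mean CPM + 0.01 (log axis, 3 libraries per group) of the 15 Serpinb genes of chromosome 13 in chromosome order, with the distance from Serpinb1a in kb under each name. Points show LAMP2A+DM-αKG, LAMP2A and VT from left to right; Serpinb6b, Serpinb9 and Serpinb9b are highest in LAMP2A, Serpinb6c and Serpinb6a at the far end are highest in VT, and the 7 genes between Serpinb1b and Serpinb6c have 2 counts or fewer.

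The Serpina genes, most of which encode blood plasma serpins made by liver, were near the limit of detection. Of 24 genes in the chromosome 12 cluster 8 were members, and with Serpina7 on the X chromosome they summed to 0.578 to 2.15 CPM in LAMP2A+DM-αKG libraries, 2.34 to 2.70 CPM in LAMP2A and 0.741 to 1.45 CPM in VT. LAMP2A+DM-αKG replicate 1 stood apart at the top of its group, with 7 counts of Serpina1b, 7 of Serpina1d and 10 of Serpina3k, where the other libraries of that group had 0 to 3. Serpina3g had 37 counts in LAMP2A and none elsewhere, which made it at least 10.7-fold lower in LAMP2A+DM-αKG and at least 10.5-fold higher in LAMP2A than in VT. Serpina3h had 0, 76 and 3 counts in LAMP2A+DM-αKG, LAMP2A and VT, and the next gene, Serpina3i, had 11, 9 and 51. Serpina3i was lower in LAMP2A than in VT, and its difference with DM-αKG did not pass. As it met the low count filter only through the VT libraries, that fall was fixed in advance. Serpina7 rose 1.76-fold in LAMP2A, a call lost by DESeq2 and without VT replicate 1 (log2 fold change 0.60) or LAMP2A replicate 2 (0.78). Without LAMP2A+DM-αKG replicate 1 no call on the tested Serpina genes was lost. Serpina1b, Serpina1d and Serpina3k were not tested, so they had no call to lose. The Serpina1 and Serpina3 genes are near-identical copies, so the assignment of reads among them is uncertain.

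Prss23, A2m and Htra1 each had a pattern of its own. Prss23 (chr7:89507783-89527187, minus strand), a secreted serine protease whose substrates are little known, had 0.252, 0.0770 and 0.0665 CPM in LAMP2A+DM-αKG, 98.1, 93.8 and 96.8 CPM in LAMP2A and 0, 0.0740 and 0 CPM in VT, from 10, 8838 and 2 counts. It was 741-fold lower with DM-αKG, and its ratio of LAMP2A to VT was 3764 (95% counting interval 1042 to 31084). Treated cells had 4.90 (95% counting interval 1.04 to 46.0) times the VT level of Prss23, a difference that did not pass by DESeq2 or without VT replicates 1 (log2 fold change 1.64) or 3 (1.58) or LAMP2A+DM-αKG replicate 1 (1.34). The antisense gene Prss23os overlaps 22.9% of the exon bases of Prss23. A2m (chr6:121635376-121679227, plus strand) encodes alpha-2-macroglobulin, which traps proteases of all classes, and had the largest rise of any member with DM-αKG. Its levels were 188, 189 and 195 CPM in LAMP2A+DM-αKG, 5.90, 5.84 and 5.45 CPM in LAMP2A and 58.6, 55.3 and 57.1 CPM in VT. A2m rose 33.1-fold with DM-αKG (log2 fold change 5.05 ± 0.0483 SE, adjusted p = 1.08e-40), to 3.34-fold above VT, while LAMP2A was 9.91-fold below VT. Htra1, a secreted serine protease that cuts matrix proteins such as fibronectin, had 16.8, 18.0 and 17.2 CPM in LAMP2A+DM-αKG, 38.7, 36.2 and 37.6 CPM in LAMP2A and 56.9, 58.3 and 51.8 CPM in VT. It fell 2.16-fold with DM-αKG and 1.48-fold in LAMP2A relative to VT, so that treated cells stood 3.21-fold below VT with no overlap.

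Proteases and regulators outside the members were examined in 3 lists, read against all genes tested, of which 41.1% rose and 42.1% fell with DM-αKG and 43.0% rose and 42.1% fell in LAMP2A relative to VT. Of 22 tested genes in a list of 26 other pericellular and lysosomal proteases, 4 rose and 17 fell with DM-αKG. In LAMP2A relative to VT, 19 rose and 3 fell, and the median log2 fold changes were -0.61 and 0.95. The 22 include Adam12 and Tmprss2, which met the low count filter only through the LAMP2A libraries. The directions of these genes in both counts were fixed in advance. Bmp1, the procollagen C-proteinase, averaged 6.93 ± 0.199 CPM in LAMP2A+DM-αKG, 80.3 ± 1.65 CPM in LAMP2A and 5.17 ± 0.594 CPM in VT. Furin, which activates MT-MMPs and Mmp11, averaged 38.6 ± 2.13, 69.0 ± 2.09 and 24.9 ± 2.43 CPM in the same order (SD, n = 3). Of 19 tested genes among 21 other inhibitors, receptors and clearance proteins, 3 rose and 14 fell with DM-αKG. In LAMP2A, 15 rose and 4 fell, and the medians were -0.85 and 1.33. The 19 include Vtn, which met the filter only through the LAMP2A libraries, so its directions were fixed in advance. Reck, a membrane-anchored inhibitor of MMPs, averaged 19.3 ± 0.496 CPM in LAMP2A+DM-αKG, 60.4 ± 1.63 CPM in LAMP2A and 9.05 ± 0.330 CPM in VT. Spint1, an inhibitor of the membrane protease matriptase, went the opposite way at 108 ± 1.64, 59.7 ± 1.12 and 137 ± 2.82 CPM. St14, which encodes matriptase, averaged 81.4 ± 2.58, 36.1 ± 0.739 and 48.1 ± 2.64 CPM and so was also lowest in LAMP2A. Among 12 AP-1 and ETS factor genes, 3 rose and 7 fell with DM-αKG and 8 rose and 4 fell in LAMP2A, with medians of -1.12 and 0.85. Jun averaged 11.5 ± 0.198 CPM in LAMP2A+DM-αKG, 128 ± 2.69 CPM in LAMP2A and 5.38 ± 0.244 CPM in VT, while Etv4 averaged 166 ± 3.51, 18.6 ± 1.09 and 243 ± 9.94 CPM. In treated cells relative to VT, where 29.3% of all genes passed in each direction, 11 of the proteases rose and 3 fell, 7 of the inhibitors and receptors rose and 7 fell, and 5 of the factors rose and 5 fell.

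The 13 members left untested for low counts were Adamts16, Adamts18, Adamtsl3, Serpina1b, Serpina1d, Serpina3k, Serpina3m, Serpina3n, Serpinb1b, Serpinb8, Serpinc1, Serpinf2 and Timp4. The authors' deposited tables listed 68 members for LAMP2A+DM-αKG relative to LAMP2A, with 10 higher and 41 lower at an adjusted p under 0.05. For LAMP2A relative to VT they listed 66, with 44 higher and 13 lower. The deposited tables hold 16289 and 16283 genes. The share of all those genes called is not given here, so these counts cannot be told from a background. All members called both there and here, 47 and 52, had the same sign in the authors' deposited tables. The calls made in the authors' deposited tables alone were Adamts16, Adamts18, Serpina1b and Timp4 with DM-αKG. In LAMP2A relative to VT they were Adamts16, Adamts18, Serpina3n, Serpinf2 and Timp4. All were left untested here for low counts. Of the 10 counts of Serpina1b in LAMP2A+DM-αKG, 7 were in replicate 1. The calls made here alone were Mmp24, Serpinb6c and Timp1 with DM-αKG and Serpina7 in LAMP2A relative to VT.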

How the data were processed

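Gene counts of 9 libraries were analysed, 3 each for LAMP2A+DM-αKG, LAMP2A and VT. Whole-number counts per gene were deposited by the authors, who aligned with STAR 2.7.1 to mm10 and counted with HTSeq 0.11.2, per the submitters' processing notes. No source used here gives their gene annotation or strand setting, and the kit keeps strand, per the labels' protocols. The authors' deposited comparison tables, per their file headers, hold DESeq2 output: a mean signal, log2 fold changes with their errors, a test score (the statistic), p-values and adjusted p-values. They were used only for the counts of calls credited to them.

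Counts were scaled by TMM and tested in edgeR 4.0.16 (R 4.3.3): filterByExpr kept 14513 of 24421 genes, 1 robust quasi-likelihood fit over all 9 libraries gave the 3 comparisons, and p-values were adjusted over all genes tested by the Benjamini-Hochberg method. The same steps were tested on simulated data. Library totals were 23636074 to 32809875 counts, and counting intervals (95%, exact) and the floor of 3 counts per group cover counting error only. Replicate numbers were not treated as pairs in the main fit. Deviations of same-numbered libraries correlated at -0.07 to 0.08, which cannot exclude a shared culture or day. The same-numbered library was the best match for 2 of 3 between LAMP2A+DM-αKG and VT. It was so for 1 of 3 between LAMP2A+DM-αKG and LAMP2A, and for 0 of 3 between LAMP2A and VT. Alternatives were DESeq2 size factors, DESeq2 1.42.0, no filter, a mean of at least 5 CPM, 6 libraries only, a replicate block, a 2-fold threshold and leaving out each library. Exon lengths and overlaps came from the GENCODE annotation of GRCm38, the same build as mm10, and promoters from RefSeq GRCm38.p6.

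The members and lists were chosen with earlier results of these data known. The genes named are 16 fixed ones (Mmp2, Mmp9, Mmp14, the TIMPs, the plasminogen activation genes, Serpinh1, Prss23, Htra1 and A2m) and, per comparison, the 10 members that rose most and the 10 that fell most, of those that passed and averaged 1 CPM or more. Others are named to complete a class or a count, after their values were seen. A planned comparison of member proteins was not run, as no protein sequences were used here. The values of 1 member, which the counts include, are not reported here.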

Additional observations from a re-analysis of the deposited data

How the results depend on the processing

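The counts of members that rose or fell stayed within 1.5 times their values under DESeq2 size factors, the DESeq2 Wald test, no low count filter and a fit of only the 6 libraries compared. With a mean of at least 5 CPM required, 21 members were higher in LAMP2A than in VT, 21 lower with DM-αKG than in LAMP2A and 11 lower in LAMP2A+DM-αKG than in VT, as fewer members were tested. With a change of at least 2-fold required, 7 were lower in LAMP2A than in VT, 4 higher with DM-αKG than in LAMP2A, and 4 higher and 7 lower in LAMP2A+DM-αKG than in VT. Leaving out each library in turn gave 40 to 42 members higher and 12 to 14 lower in LAMP2A than in VT, 9 to 11 higher and 38 to 42 lower with DM-αKG than in LAMP2A, and 13 to 16 higher and 15 to 17 lower in LAMP2A+DM-αKG than in VT. Of 2047 alternative values for 140 single-gene results, 2000 kept direction and call, 42 lost the call and 5 changed sign. The sign changes were of differences between LAMP2A+DM-αKG and VT that had not passed: the log2 fold change of Mmp14 ran over -0.0484 to 0.0295 as each library was left out, above 0 without VT replicate 1 or LAMP2A+DM-αKG replicate 3, and that of Plau over -0.254 to 0.160, above 0 without VT replicates 2 or 3 or LAMP2A+DM-αKG replicate 2. In the 150 bases of the promoter window nearest the start, in place of 300 bases, the TEAD motif was in 2.22% and the E-box in 15.6% of members, and in 8.13% and 33.9% of all genes, which the shorter window also lowered. With the replicate number as a block, 40 members were lower with DM-αKG than in LAMP2A instead of 39, and the other 5 counts were equal. Whether the numbers mark a shared source is not known. DESeq2 size factors moved the median of all genes by at most 0.01 on the log2 scale. Depth limits the Serpina genes and the other members under 1 CPM, where a few counts set a value.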

Other observations

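LAMP2A+DM-αKG replicate 1 held small counts of liver-type transcripts that its 2 partner libraries hardly had, a pattern picked out after the values were seen. Alb, serum albumin, had 70 counts there against 4 and 10 in the other LAMP2A+DM-αKG libraries, 8 to 11 in LAMP2A and 7 to 16 in VT. Apoa1 had 25 counts against 4 and 2, Fgb 27 against 3 and 3, Fga 22 against 1 and 3, and Hp 21 against 2 and 2. Of the members, Serpina1b had 7 counts there against 0 and 3, Serpina1d 7 against 1 and 0, and Serpina3k 10 against 0 and 1, with 0 to 3 in the LAMP2A and VT libraries. Serpina3m (7 against 0 and 2), Serpina3n (8 against 0 and 1) and Adamtsl3 (7 against 1 and 1) were also above their partners, but the LAMP2A libraries held as many or nearly so, at 5 to 7, 9 to 12 and 8 to 13 counts. None of these 6 members had enough counts to be tested. Ahsg, another liver plasma gene, had 37 counts there against 35 and 42, and so did not stand apart. A2m, a plasma protein gene too, had 188 CPM in that library against 189 and 195 CPM in its partners.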
